A study of Lissachatina fulica and Mizuhopecten yessoensis with 12 samples.

Results

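PTGER4 names the EP4 receptor for prostaglandin E2, and 5 rows of the deposited tables carry exactly that gene symbol. Of these, 4 lie among the 4195 rows listed for scallop and 1 among the 1886 listed for snail. The scallop rows are Miz0283600.1, Miz0144290.1, Miz0054050.1 and Miz0123300.1, and the snail row is Afu007777. They are called copies below because they share a symbol. The symbol is an annotation name taken from other animals, so it does not say which of them, if any, is the ortholog of the vertebrate receptor.

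Hearts of wild-type scallops (Mizuhopecten yessoensis) and giant African snails (Lissachatina fulica) were divided into atrium and ventricle, and poly-A RNA of each chamber was sequenced in bulk. The study profiled adult hearts, and no treatment and no exact age was given. Each chamber of each species had 3 libraries, 12 in all. The labels do not say whether the 3 libraries of a chamber came from separate animals or from pools, so their spread may be partly technical. Reads on the listed genes ranged from 10120508 to 21526834 per scallop library and from 606309 to 1165104 per snail library.

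Prostaglandins are lipid signals made from arachidonic acid, which phospholipases release from membranes and cyclooxygenases oxidise. In mammals the EP4 receptor couples to the stimulatory G protein, so that prostaglandin E2 raises cyclic AMP in the receiving cell, and the receptor relaxes many blood vessels and tempers inflammation. Cyclic AMP then acts through protein kinase A and exchange factors of the Epac family, and phosphodiesterases remove it. In scallops, prostaglandins are known mainly for their part in spawning. These roles come from other tissues, or from vertebrates, and are background here.

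The copies were found through tables that list only genes chosen for a difference between the chambers. Every row listed has an unadjusted p under 0.05 and at least a doubling or halving between chambers in the authors' deposited table. The chamber difference of each copy is therefore given as a description, without a test. PTGER4 rows outside those limits were not analysed here. Values are normalized counts, that is read counts divided by a size factor for each library. No gene length enters them, so they are compared between libraries and not between copies. Log2 fold changes compare atrium with ventricle (positive where the atrium is higher) after 1 was added to each normalized count, with the SE of a limma fit over all rows whose mean reached 10. All 5 copies passed that filter.

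The scallop copies did not share a direction. Miz0283600.1 and Miz0144290.1 were read almost only in atria, Miz0054050.1 was moderately higher in atria, and Miz0123300.1 was higher in ventricles. The snail copy was read mainly in atria.

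Miz0283600.1 stood at 578, 166 and 462 normalized counts in scallop atria 1, 2 and 3 and at 0, 1.504 and 1.88 in ventricles 1, 2 and 3. All atria lay far above all ventricles, and atrium 2 was the lowest atrium. The atrial mean was 402 ± 212 (SD, n = 3) against 1.13 ± 0.994 in ventricles. In reads this was 1508 in the atria against 3 in the ventricles, which gave a ratio of 365 once size factors were applied (95% interval from 125 to 1774, exact conditional binomial). Such intervals cover counting error only. The log2 fold change was 7.52 ± 0.76 (SE), the 13th largest of 1786 rows that were higher in the scallop atrium. It depends on the pseudocount where ventricles are near 0, at 8.05 with a pseudocount of 0.5 and 5.89 with 5.

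Miz0144290.1 had the same shape at other levels. It stood at 232, 92.7 and 208 normalized counts in atria 1, 2 and 3 and at 0, 3.01 and 1.88 in the ventricles. Again the groups were far apart, and again atrium 2 was lowest. The means were 178 ± 74.6 and 1.63 ± 1.52 (SD, n = 3), from 663 and 4 reads, with a ratio of 121 (95% interval 46.8 to 444). The log2 fold change was 6.20 ± 0.79 and ranked 43rd of the 1786.

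Both atrium-limited copies were highest in atrium 1 and lowest in atrium 2. This is not particular to the pair, since WNT16, GLRA3 and SSPO had profiles closer to Miz0144290.1 than Miz0283600.1 had (below). The ratio of Miz0283600.1 to Miz0144290.1 was 2.49, 1.79 and 2.22 in atria 1, 2 and 3, while the levels of the first differed by more than 3-fold. In atrium 2 the first copy stood at 0.319 and the second at 0.421 of the mean of the other atria. Over all 1786 rows higher in the scallop atrium, the median of that proportion was 1.04, and 29.8% of rows were lowest in atrium 2. Over the 90 rows with a log2 fold change of at least 5 the median was 0.845, and 43.3% were lowest there. Both copies thus stood lower in atrium 2 than the median atrial row. Without atrium 2 their log2 fold changes were 8.07 and 6.61.

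**Figure D1:**
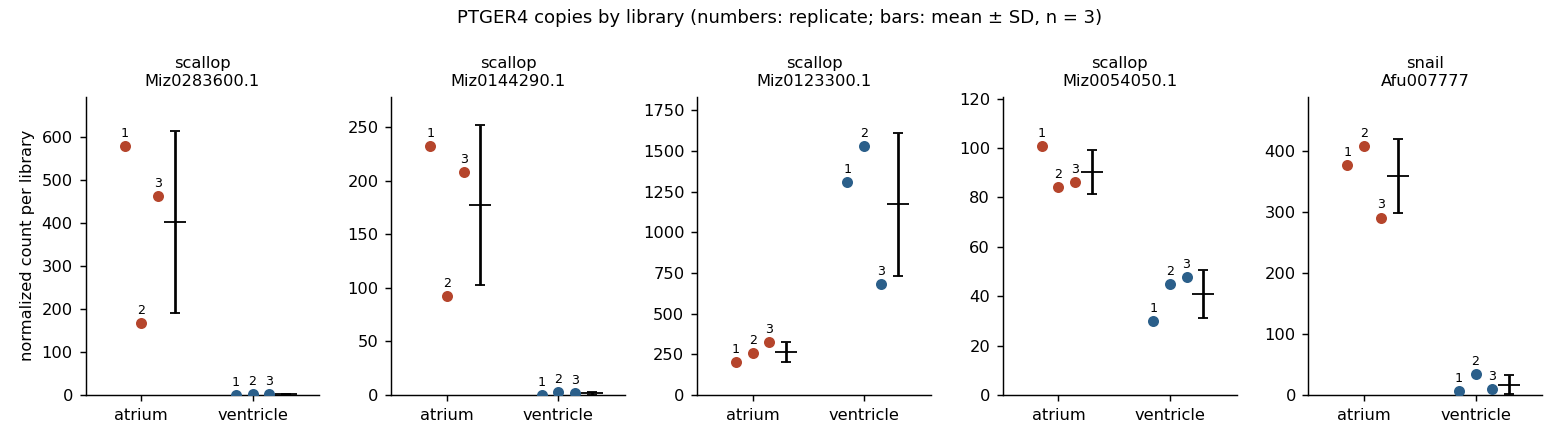
Normalized count (linear axis from 0) of each PTGER4 copy in every library, with atria in red and ventricles in blue. Points are libraries labelled by replicate number, and bars show mean ± SD of 3 libraries. Atrial and ventricular points do not overlap for any copy, with ventricles higher in Miz0123300.1 only.

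Miz0054050.1 stood at 100.7, 84.1 and 86.2 normalized counts in atria 1, 2 and 3 and at 29.9, 45.1 and 47.9 in the ventricles. The chambers did not overlap, but the gap was much narrower than in the pair above. The means were 90.3 ± 9.05 and 40.9 ± 9.69 (SD, n = 3), a log2 fold change of 1.15 ± 0.53, which ranked 1688th of the 1786 atrial rows. It lies just inside the limits of the list, with an unadjusted p of 0.0218 and a ventricle-over-atrium log2 fold change of −1.14 in the authors' deposited table. Its adjusted p there was 0.0943, while those of the other copies ranged from 4.78e-22 to 2.33e-05. Atrium 2, where the atrium-limited copies were low, stood at 0.899 of the mean of the other atria for this copy.

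Miz0123300.1 was the copy higher in ventricles. It stood at 1308, 1529 and 680 normalized counts in ventricles 1, 2 and 3 and at 202, 261 and 328 in the atria. Every ventricle lay above every atrium, and ventricle 3 was the one nearest to them. The means were 264 ± 62.8 in atria and 1172 ± 440 in ventricles (SD, n = 3), from 963 and 2924 reads. The ventricular mean was 4.45 times the atrial one. The log2 fold change was −2.10 ± 0.42, which ranked 268th of 2141 rows higher in the ventricle. Ventricle 3 stood at 0.480 of the mean of the other ventricles, and over those 2141 rows the median was 0.579, with 75.01% lowest in ventricle 3. Without ventricle 3 the log2 fold change of the copy was −2.45, and without ventricle 2 it was −1.86.

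The copies could share reads if their sequences were near-identical, and the labels do not state how strand or multi-mapping reads were treated. Sharing of reads was not tested. In the ventricles, where Miz0123300.1 had 1182, 1017 and 725 reads, Miz0283600.1 had 0, 1 and 2 and Miz0144290.1 had 0, 2 and 2.

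Summed over the 4 scallop copies as deposited, the chambers overlapped. Other scalings of this sum were not tried. The sum was 934 ± 286 normalized counts in atria and 1216 ± 436 in ventricles (SD, n = 3), with atria from 604 to 1113 and ventricles from 732 to 1579. What differed was which of these 4 copies supplied their reads, although longer transcripts give more reads and lengths were not used. Each copy was listed for a chamber difference, so a shift in shares follows in part from the listing. Any PTGER4 row outside the list is missing from the sum and the shares. Miz0123300.1 held 30.5% ± 12.5 of the reads of the 4 copies in atria and 95.9% ± 2.56 in ventricles. Miz0283600.1 held 40.7% ± 12.3 and 0.117% ± 0.130, and Miz0144290.1 held 18.5% ± 2.83 and 0.149% ± 0.133. Miz0054050.1 held 10.3% ± 3.18 in atria and 3.88% ± 2.33 in ventricles. A total taken over the 4 listed copies would hide opposite differences of this size.

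Copies that differ in direction were not rare among the listed symbols. In scallop, 190 symbols had several listed rows, and in 42 of them (22.1%) the rows fell in both directions. Of the 18 scallop symbols with at least 4 rows, PTGER4 among them, 9 did so.

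The snail copy Afu007777 stood at 378, 408 and 291 normalized counts in atria 1, 2 and 3 and at 6.48, 34.2 and 9.41 in the ventricles. The chambers were far apart, and ventricle 2 was the highest ventricle. The means were 359 ± 60.7 and 16.7 ± 15.2 (SD, n = 3), from 1494 and 33 reads, with a ratio of 24.4 (95% interval 17.3 to 35.5). The log2 fold change was 4.67 ± 0.58, the 119th largest of 858 rows higher in the snail atrium. It was 5.34 without ventricle 2 and 4.22 without ventricle 1. Unlike the atrium-limited scallop copies, this one kept a measurable ventricular level, with 6, 20 and 7 reads in ventricles 1, 2 and 3.

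**Figure D2:**
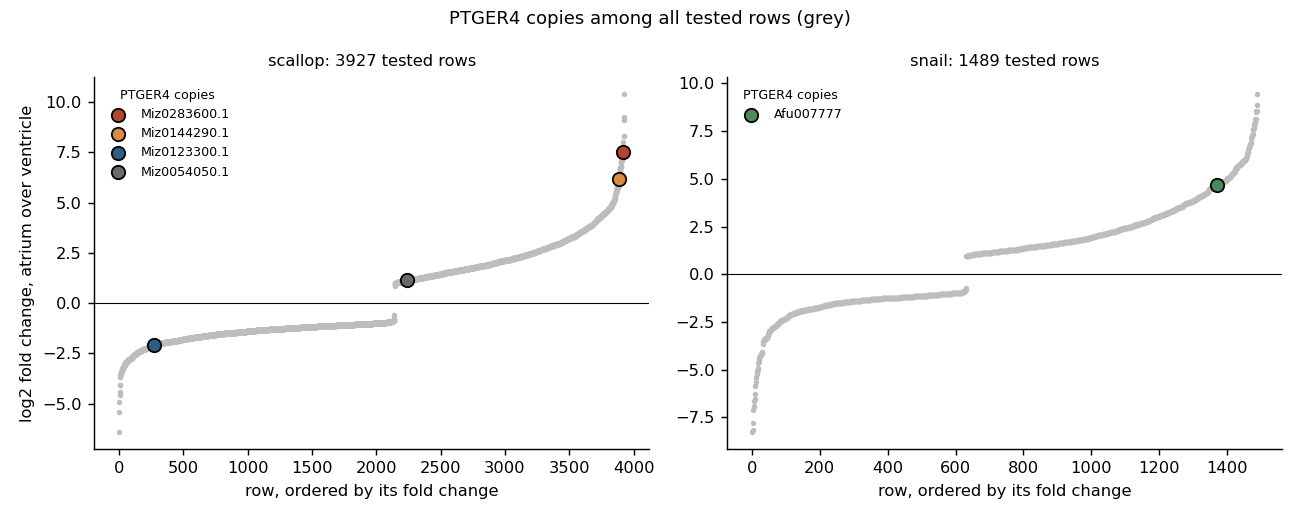
Log2 fold change (atrium over ventricle) of all tested rows of each table in rising order, grey, with the PTGER4 copies marked. The gap around 0 is the limit that the authors set for listing a row. Miz0283600.1 and Miz0144290.1 lie at 7.52 and 6.20 in the steep atrial end, and Miz0054050.1 at 1.15 beside the gap.

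The listing itself sets what counts of such rows can say. In scallop 3 of 4 copies, all but Miz0054050.1, passed a limma adjusted p under 0.05 with at least a 2-fold change, where 87.6% of the 3927 tested rows did. Miz0054050.1 passed after the TMM scaling, after the ribosomal rescaling and without ventricle 3, and Miz0123300.1 no longer passed after the ribosomal rescaling. By direction, 2 copies passed toward the atrium, against 42.0% of rows, and 1 toward the ventricle, against 45.6%. In all 4 copies the chambers did not overlap, as in 87.8% of tested rows: 3 were higher in the atrium, as in 40.1% of rows, and 1 in the ventricle, as in 47.7%. In snail the copy passed the limma threshold, where 83.9% of 1489 rows did, 46.9% toward the atrium and 37.0% toward the ventricle. Its chambers did not overlap, as in 86.2% of snail rows, with 46.6% of them higher in atria and 39.6% in ventricles. Nothing is read from these counts, because the tables were chosen on the same contrast.

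Scaling bears on the smaller differences. Over all tested scallop rows the median log2 fold change was −1.01 as deposited. It moved to −0.51 after a further TMM scaling, to −0.37 under quantile normalization and to 0.21 after the libraries were rescaled to equal medians of 61 ribosomal protein rows. Those ribosomal rows come from the same list, so they too were chosen for a chamber difference. Relative to the median of all tested rows, Miz0123300.1 lay at −1.08 as deposited, −1.08, −1.56 and −1.08 in the same order. The TMM and ribosomal scalings multiply each library by a constant, so they leave this distance almost unchanged by construction. The log2 fold change of Miz0123300.1 itself shrank to −0.87 after the ribosomal rescaling. Miz0054050.1 moved from 1.15 to 1.64, 0.10 and 2.35, so that its difference nearly vanished under quantile normalization, where its chambers also overlapped. The atrium-limited copies stayed at 4.19 or above under all 3 scalings. In snail the median moved from 1.22 to 1.41 after the TMM scaling and to 0.20 under quantile normalization, and Afu007777 stood at 4.86 and 3.91. No copy turned its direction under any setting tried.

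**Figure D3:**
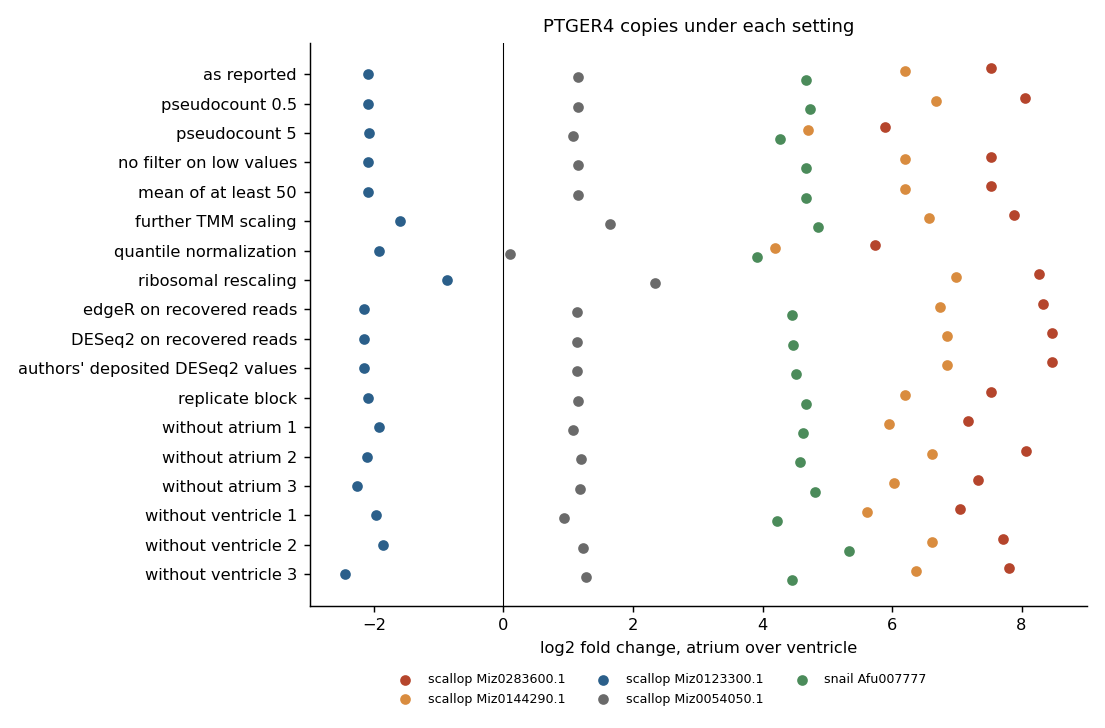
Log2 fold change (atrium over ventricle) of each PTGER4 copy under every processing setting, 1 line of points per setting. No point crosses 0. Miz0054050.1, at 1.15 as reported, lies between 0.10 and 2.35.

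For each copy, the 3 rows with a symbol whose profiles over the 6 libraries were closest were listed. Closeness was the root mean square difference on the log2(normalized count + 1) scale after each row was centred on its mean, over 2407 scallop rows and 848 snail rows. Because the rows were picked on these same libraries, a high or low library shared with the copy follows from the choice. Closest to Miz0283600.1 were SSPO, MDP1 and GLRA3, at 0.56, 0.56 and 0.67. SSPO is a large secreted glycoprotein with thrombospondin repeats, MDP1 a phosphatase and GLRA3 a subunit of the glycine-gated chloride channel. GLRA3 stood at 983, 525 and 994 normalized counts in atria 1, 2 and 3 and at 5.53, 12.03 and 7.51 in the ventricles, so it was also lowest in atrium 2.

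Miz0144290.1 was closest to WNT16, a secreted Wnt ligand, at 0.39, then to GLRA3 at 0.41 and SSPO at 0.54. The other atrium-limited copy lay at 0.71. WNT16 stood at 429, 235 and 309 in the atria and at 2.21, 6.02 and 3.75 in the ventricles, lowest in atrium 2 as well. With ventricles near 0, these distances depend on the pseudocount of 1.

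Miz0123300.1 was closest to NDUFV2 at 0.10, PCBP3 at 0.10 and NDUFA8 at 0.11. NDUFV2 and NDUFA8 are subunits of respiratory complex I, and PCBP3 is an RNA-binding protein. NDUFV2 stood at 995, 1173 and 1448 normalized counts in atria 1, 2 and 3 and at 5654, 6126 and 3263 in ventricles 1, 2 and 3, the same order of libraries as the receptor copy. Miz0054050.1 was closest to ABCC5 at 0.06, Gli at 0.10 and C20orf194 at 0.12. ABCC5 is an export pump of the multidrug resistance family that carries cyclic nucleotides in mammals, and stood at 637 ± 82.8 in atria and 287 ± 73.1 in ventricles (SD, n = 3).

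The snail copy was closest to CDON, EBF2 and FREM1, at 0.28, 0.32 and 0.38. CDON is a cell surface receptor of hedgehog ligands, EBF2 a transcription factor and FREM1 an extracellular matrix protein. FREM1 stood at 430, 298 and 392 in the atria and at 11.9, 39.3 and 9.41 in the ventricles, so ventricle 2 was highest here too. CDON and EBF2 had no read in ventricles 1 and 3.

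**Figure D4:**
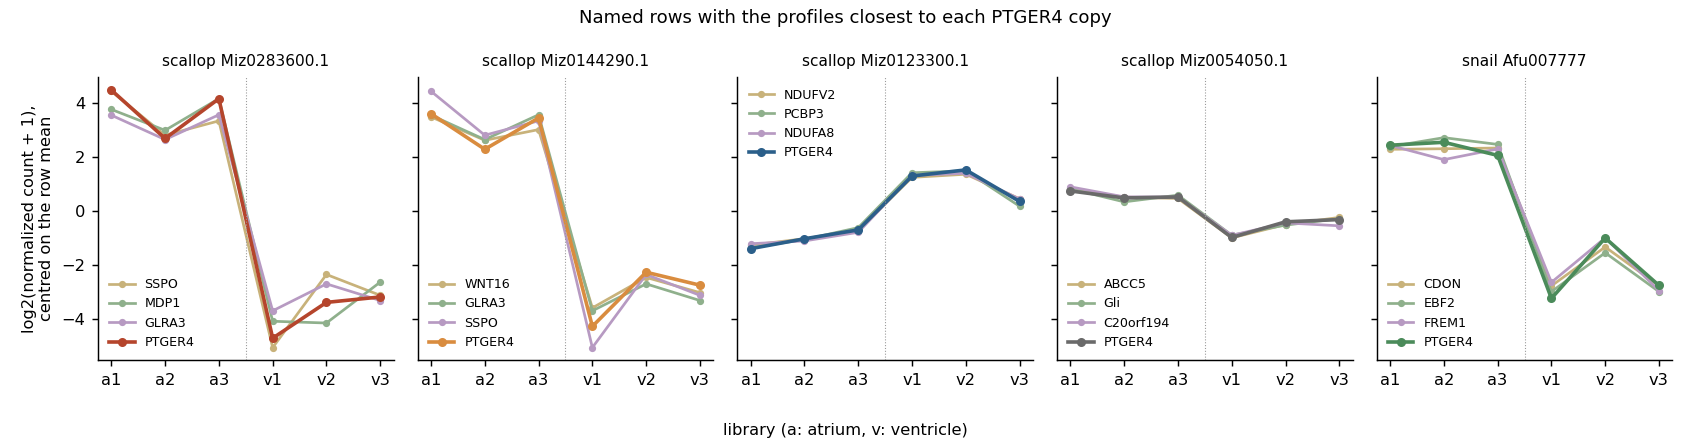
Profiles of each PTGER4 copy (thick line) and its 3 closest named rows over the 6 libraries, as log2(normalized count + 1) centred on the row mean. In Miz0283600.1 and Miz0144290.1 atrium 2 (a2) dips in the receptor and its neighbours, and in Miz0123300.1 ventricle 3 (v3) does. The neighbours were picked for closeness over these same libraries.

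Enzymes of the prostaglandin pathway lay on both sides. Their lists, like the copies, hold only rows of the tables, so their counts are to be set against the shares of all tested rows past the threshold, which were 42.0% (atrium) and 45.6% (ventricle) in scallop and 46.9% and 37.0% in snail. Of 7 scallop rows for prostaglandin synthesis, turnover and transport, 3 were past the limma threshold toward the atrium, 1 toward the ventricle and 3 did not pass. The median log2 fold change was −0.90, against −1.01 over all tested rows. PTGS2, a cyclooxygenase that makes the common precursor of all prostaglandins, stood at 234, 413 and 391 in atria 1, 2 and 3 and at 21.0, 116 and 103 in the ventricles. Its log2 fold change was 2.38 ± 0.66, and it was lowest in atrium 1, not in atrium 2. ABCC4, which exports cyclic AMP and prostaglandins in mammals, stood at 1794 ± 529 and 594 ± 161 (1.58 ± 0.37). An HPGDS row (Miz0186430.1), named for a prostaglandin D synthase, stood at 51.2, 101.2 and 13.4 in atria and at 0, 3.01 and 0 in ventricles. PTGES3, a co-chaperone that also acts as a prostaglandin E synthase, was toward the ventricle, at 4789 ± 651 against 12682 ± 5120 (−1.31 ± 0.37). Its call was lost under all 3 scalings and without atrium 1. The call of the HPGDS row above was lost under quantile normalization. The other HPGDS row (−0.90) and both PTGR1 rows (−2.84 and −1.10), named for a prostaglandin reductase, did not pass, while edgeR on recovered reads called 3 rows of this list toward the ventricle and DESeq2 4. That HPGDS row and 1 PTGR1 row (Miz0079390.1) turned under the ribosomal rescaling, to 0.33 and 0.07.

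Of 5 scallop rows for arachidonate release and other eicosanoid enzymes, 3 were toward the ventricle and 2 toward the atrium (median −1.07). PLA2G4A, the cytosolic phospholipase that frees arachidonic acid in mammals, stood at 193 ± 34.4 in atria and 404 ± 32.5 in ventricles. PLA2G2E, a secreted phospholipase, stood at 4.29 ± 2.30 and 75.1 ± 50.8, and the lipoxygenase ALOX5 at 445.1 ± 122.999 and 1111 ± 393. Toward the atrium were EPHX4, of the epoxide hydrolase family, at 4243 ± 903 against 1967 ± 785 and GGT1, which trims glutathione conjugates, at 91.1 ± 29.5 against 33.3 ± 21.3. Apart from that of PLA2G2E, these calls were lost in most fits without 1 library. Over all tested scallop rows such fits gave 1892 to 3511 calls, against 3440 with all libraries. PLA2G4A turned to 0.15 under the ribosomal rescaling and lost its call in 4 of 6 fits without 1 library, GGT1 lost its call in 5 of 6 fits without 1 library, and EPHX4 and ALOX5 each in 4 of 6. ALOX5 also lost its call under all 3 scalings, at −0.91 under quantile normalization, −0.78 after the TMM scaling and −0.05 after the ribosomal rescaling. No atrial call was left without atrium 1, without atrium 2 or without ventricle 3.

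The prostacyclin receptor PTGIR, which in mammals also couples to the stimulatory G protein, was the only member of the list of other prostanoid and eicosanoid receptors, with 1 row in each species. In scallop it stood at 122.6, 114.6 and 107.0 in atria and at 46.5, 27.1 and 39.4 in ventricles. The chambers did not overlap (log2 fold change 1.61 ± 0.53), but leaving out any atrium ended the call (limma adjusted p between 0.0573 and 0.0731), as did quantile normalization. In snail it stood at 25.5, 29.6 and 43.2 in atria and at 3.24, 0 and 1.34 in ventricles (3.94 ± 0.70), and the call held in all fits without 1 library. In both species PTGIR lay on the atrial side, where every PTGER4 copy but the scallop copy Miz0123300.1 lay. Of all tested rows, 42.0% in scallop and 46.9% in snail passed toward the atrium, so nothing is read from this.

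Among snail rows, 2 prostaglandin synthesis and turnover genes were tested. PTGR1 stood at 94.9, 25.02 and 340 in atria and at 3.24, 23.9 and 21.5 in ventricles (2.83 ± 1.06), with atrium 2 close to the ventricles. Its call was lost in 5 of 6 fits without 1 library. ABCC4 was toward the ventricle, at 122.98 ± 40.3 against 259 ± 71.0 (−1.08 ± 0.32), opposite to its scallop namesake, and lost its call in 3 of 6 such fits and after the TMM scaling. HPGDS lay below the filter, at 4.38, 0 and 25.9 in atria and at 0, 1.71 and 0 in ventricles. Of 6 eicosanoid enzyme rows 4 were toward the atrium, none toward the ventricle and 2 did not pass, at a median of 1.36 against 1.22 over all tested rows. They were 2 phospholipases (PLA2G16 at 26.9 ± 4.45 against 6.74 ± 3.50, PLA2G4A at 28.9 ± 6.51 against 11.95 ± 5.70), ALOX5 (67.1 ± 16.3 against 30.4 ± 8.30) and a GGT1 row (378 ± 33.7 against 90.8 ± 16.2). PLA2G4A turned to −0.01 under quantile normalization and lost its call in 5 of 6 fits without 1 library. The count fell to 2 without atrium 2 or without ventricle 3 and to 1 under quantile normalization. The diacylglycerol lipase DAGLA (−1.33) and a further GGT1 row (1.41) did not pass.

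Cyclic AMP signalling and receptor desensitisation had 10 listed rows in each species. In scallop 6 were toward the atrium and 2 toward the ventricle, against 42.0% and 45.6% of all tested rows, and 2 did not pass. The median log2 fold change was 1.43, against −1.01 over all tested rows. Under quantile normalization 4 were toward the atrium and 3 toward the ventricle. After the TMM scaling, and after the ribosomal rescaling, these counts were 6 and 0. The most abundant atrial rows were the adenylyl cyclase ADCY1, which makes cyclic AMP, at 1827 ± 293 against 532 ± 209, RGS7, a regulator of G protein signalling, at 1088 ± 11.2 against 537 ± 207, and the phosphodiesterase PDE2A at 881 ± 531 against 298 ± 338. The inhibitory G protein subunit GNAI3 had 213 ± 24.9 in atria against 467 ± 162 in ventricles, and turned to 0.14 under the ribosomal rescaling. ATF4, a stress-responsive transcription factor, stood at 56333 ± 10120 and 144707 ± 69578, and its call was lost under all 3 scalings. AKAP14, an anchoring protein of protein kinase A, stood at 26.9 ± 9.31 and 79.8 ± 59.8 and did not pass. The atrial count fell to 3 without atrium 1 or without atrium 2, and the ventricular count to 0 without atrium 1, atrium 3 or ventricle 1. RGS7 lost its call in 5 of 6 fits without 1 library and PDE2A in 4 of 6, while ADCY1 kept its call under every setting tried.

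In snail 6 of the cyclic AMP rows were tested, with 3 toward the atrium, 2 toward the ventricle and 1 that did not pass (median 1.25). An ADCY1 row had 91.8 ± 11.04 normalized counts in atria against 14.7 ± 8.004 in ventricles (2.67 ± 0.40), and another, below the filter, had 5.24 ± 0.649 with no ventricular read. The transcription factor CREB3L1 stood at 218 ± 14.9 and 109 ± 28.1, and the phosphodiesterase PDE4A at 44.7 ± 7.55 and 18.4 ± 15.7 without passing. Toward the ventricle were the kinase PRKX, at 24.6 ± 10.6 and 53.8 ± 17.0, and RGS9, at 6.81 ± 3.27 and 18.5 ± 3.76, both with calls lost in 5 or 6 of 6 fits without 1 library.

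**Figure D5:**
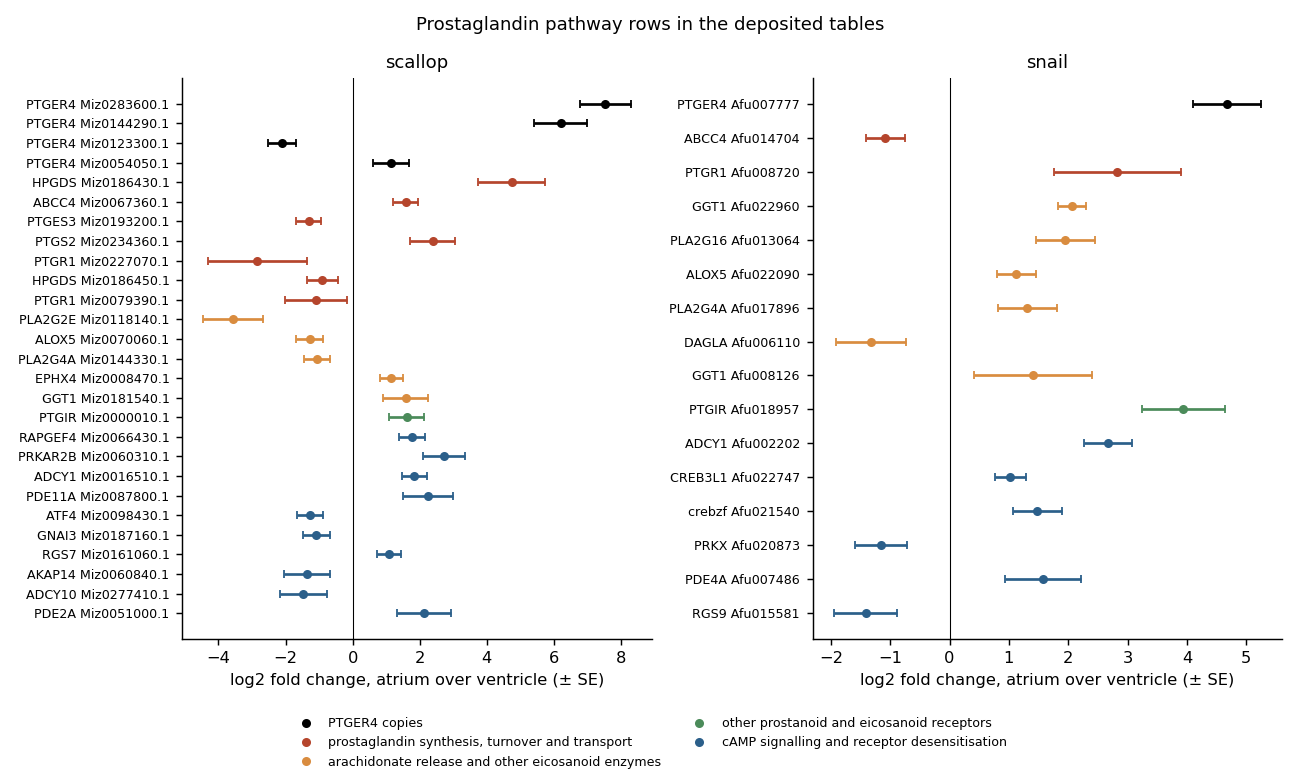
Log2 fold change (atrium over ventricle, ± SE of the limma fit) of the PTGER4 copies (black) and of the tested rows of the pathway lists, by species. Rows of the pathway lists lie on both sides of 0. Of symbols tested in both species, PTGIR, ADCY1 and GGT1 lie on the atrial side in both. ABCC4, ALOX5, PLA2G4A and PTGR1 lie on opposite sides.

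Tissue makeup markers were looked up among the listed rows of both species, each of which was chosen for a chamber difference. Markers without such a difference are absent, so differing markers and sums follow in part from the listing. In bulk RNA fewer cells of a type and less RNA per cell cannot be told apart. Heart muscle markers summed to between 421064 and 461342 normalized counts in scallop atria and between 923776 and 1504971 in ventricles, so muscle RNA was present in every library. By row, 8 of 13 tested muscle markers passed toward the ventricle and 4 toward the atrium, against 45.6% and 42.0% of all tested rows. The ventricular count was 3 after the TMM scaling, 1 under quantile normalization, 0 after the ribosomal rescaling and 5 without any 1 of the atria. In scallop 19 of 21 tested neuronal markers, 6 of 10 hemocyte markers and 11 of 15 cilia and epithelium markers were past the threshold toward the atrium, where 42.0% of all tested rows were, and 1, 3 and 1 toward the ventricle, where 45.6% were. Under quantile normalization the atrial counts were 12, 5 and 4 and the ventricular ones 1, 2 and 3. Without atrium 1 the atrial counts were 10, 6 and 2, without atrium 2 they were 14, 4 and 3, without atrium 3 they were 11, 5 and 3, and without ventricle 1 they were 15, 5 and 4. A CADPS2 row was the only one of these with no read in a chamber, the ventricle. The summed neuronal level was 13681 to 15188 in atria and 5090 to 8436 in ventricles. Hemocyte markers summed to 20936, 32819 and 24123 in atria 1, 2 and 3 and to between 9390 and 17664 in ventricles. Atrium 2, where the atrium-limited copies were lowest, had the highest hemocyte sum. Its neuronal, muscle and cilia and epithelium sums lay between those of the other atria. Whether these sums bear on the copies was not tested. The cilia and epithelium sum was 3736 to 3908 in atria and 2288 to 3340 in ventricles.

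In snail, the listed muscle markers summed to between 19783 and 27357 in atria and between 86772 and 131161 in ventricles. Of 13 tested, 8 were called toward the ventricle and 4 toward the atrium, against 37.0% and 46.9% of all tested rows. Of tested markers 5 of 9 neuronal, 7 of 10 hemocyte and 1 of 2 cilia and epithelium rows were toward the atrium, and 2, 0 and 1 toward the ventricle, against 46.9% and 37.0% of all tested snail rows. Under quantile normalization the atrial counts were 1, 4 and 0, and the neuronal count was 3 without atrium 1 or without ventricle 3. The neuronal sum was 695 to 1044 in atria and 422 to 615 in ventricles, and the cilia and epithelium sum 25.02 to 70.5 and 17.1 to 21.5. DDC, SLC6A2, TEKT3, MUC20, DNAH10 and an unc-22 row had no ventricular read. Hemocyte markers summed to 5401, 7031 and 13908 in atria 1, 2 and 3 and to between 401 and 738 in ventricles. In atrium 3 the cilia and epithelium sum was also the highest of the atria and the muscle sum the lowest. The neuronal sum there lay between those of the other atria. Afu007777 was lowest in atrium 3, at 0.741 of the mean of the other atria. Over the 858 rows higher in the snail atrium the median of that proportion was 1.21. The part of cell makeup in the chamber differences of the PTGER4 copies was not tested.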

How the data were processed

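Each species has a single table. The authors deposited in its library columns a signal, namely normalized counts, in which each library's reads per gene were divided by its size factor. This was read from the values: 100% of them in each of the 12 libraries were whole multiples of 1 step (tolerance 0.01 read), and the deposited mean column was the mean of the 6 libraries. The authors deposited log2 fold changes of ventricle over atrium with their SE, a test score (their quotient) and p-values, without and with adjustment. Tools named with no role, per the submitters' processing notes, are DESeq2 1.20.0, StringTie 1.3.3b, featureCounts 1.5.0 and HISAT2 2.0.5. No sequence or position is shown, since no genome build or annotation is named in the sources used here.

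Rows with a mean of at least 10 were fitted with limma 3.58.1 (R 4.3.3, mean-variance trend) on log2(normalized count + 1), over all rows of a species: 3927 in scallop and 1489 in snail. The threshold was a Benjamini-Hochberg adjusted p under 0.05 over these rows with at least a 2-fold change. Libraries were grouped by their titles. As alternatives, DESeq2 1.42.0 and edgeR's quasi-likelihood test (version 4.0.16) were run on the recovered reads. The fits were tested on simulated data. No pair of libraries agreed within sampling noise. The copies, lists and tests were chosen with earlier results of these data known. The rule for named genes took all PTGER4 and prostanoid or eicosanoid rows, the 3 closest rows per copy and up to 3 most abundant rows per direction of the other lists. ADCY1 of snail below the filter, and markers with no read in a chamber, were named after their values were seen. The hemocyte list also holds LYST, a lysosomal trafficking gene that its pattern caught.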

Additional observations from a re-analysis of the deposited data

Results flagged for a closer look

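ABCC4, ALOX5 and PLA2G4A were each listed once per species with chambers that did not overlap and lay in opposite order. The scallop log2 fold change (atrium over ventricle) minus the snail one was 2.66 for ABCC4, −2.40 for ALOX5 and −2.38 for PLA2G4A. The difference between the species was not tested, and a shared symbol is not an ortholog call. ALOX5 in scallop shrank from −1.28 to −0.05 under the ribosomal rescaling and lost its call under all 3 scalings, and ABCC4 in snail lost its call after the TMM scaling. PLA2G4A turned to 0.15 in scallop under the ribosomal rescaling and to −0.01 in snail under quantile normalization. PTGER4 has 4 scallop rows, so a search of symbols listed once per species could not single it out. Miz0123300.1 (−2.10) and Afu007777 (4.67) also had chambers that did not overlap and lay in opposite order. The other scallop copies lay in the same order as the snail copy. Chambers of 3 libraries are too small for a search for a deviating library.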

How the results depend on the processing

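All 5 copies kept their direction under every setting tried. The limma fits with another filter or with the replicate block leave a fold change unchanged by construction. With a pseudocount of 5, Miz0283600.1 stood at 5.89 and Miz0144290.1 at 4.71; under quantile normalization at 5.73 and 4.19. DESeq2 on recovered reads and the authors' deposited values both gave 8.47 for Miz0283600.1. Miz0054050.1 stood at 0.10 under quantile normalization, 1.64 after the TMM scaling and 2.35 after the ribosomal rescaling, and Miz0123300.1 at −0.87 after that rescaling, which could not be fitted in snail, where 0 ribosomal protein rows were tested. Over the fits without 1 library the ranges were 7.05 to 8.07 (Miz0283600.1), 5.61 to 6.61 (Miz0144290.1), −2.45 to −1.86 (Miz0123300.1), 0.94 to 1.27 (Miz0054050.1) and 4.22 to 5.34 (Afu007777). Chambers did not overlap in 3 of 4 scallop copies under quantile normalization.

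Past the threshold were 3440 scallop rows, 47.9% of them atrial, and 1249 snail rows, 55.9% atrial. Quantile normalization gave 2122 scallop calls, the ribosomal rescaling 1800 (96.7% atrial) and the TMM scaling 2308 (74.9% atrial). A mean of at least 50 gave 720 snail calls (44.9% atrial), and quantile normalization 914 (34.9% atrial). Fits without 1 library gave 1892 to 3511 scallop calls, with 1894 without atrium 1 and 1892 without atrium 2, and 951 to 1265 snail calls. On recovered reads edgeR called 3307 and 1322 rows and DESeq2 3668 and 1374. Same-numbered atria and ventricles did not deviate together (correlations of −0.13, −0.16 and −0.12 in scallop and −0.06, −0.09 and 0.06 in snail). No scallop library correlated best with its own number, and in snail only ventricle 3 did. With the replicate number as a block the calls were 3022 and 1170. The log2 fold changes of the copies were the same, as they must be in this balanced layout. Of the pathway rows, PTGIR (adjusted p = 0.0518 in limma), PLA2G4A, GGT1, GNAI3 and RGS7 in scallop and PLA2G4A and RGS9 in snail lost their calls with the block, and PTGR1 (Miz0227070.1) in scallop and PDE4A in snail gained one. Depth limits the ventricular levels of Miz0283600.1 and Miz0144290.1, at 3 and 4 reads in all.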
